A study of Mus musculus with 7 samples.

Results

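Endothelin signalling in the developing outflow tract (OFT), the vessel that leaves the embryonic heart, was examined through 5 genes chosen by name: the ligand genes Edn1 and Edn3, the converting enzyme gene Ece1, and the receptor genes Ednra and Ednrb. They were selected with earlier results of these data known, and Ednrb was selected in part on its level in 1 control pool. All 5 had a row among the 14732 genes of the normalised RNA-seq table. The OFTs came from mouse embryos at embryonic day 11.5, with 1 pool of dissected tissue behind each library. The groups were 3 pools of wild-type controls (replicates 3, 4 and 5) and 4 pools of Gata6STOP/+ embryos (replicates 1, 3, 4 and 5), which carry a CRISPR-Cas9-made premature stop in one copy of Gata6, a zinc finger transcription factor gene. The mutant line goes back to 1 selected founder that was bred to C57BL/6 according to the methods, while a reagent list of the study names a Mib1 mutant background for the line. The sample labels name no Mib1 allele, and whether either group carried one was not tested. The design text speaks of 3 pools of 4 pairs of OFTs for each genotype, whereas 4 Gata6STOP/+ pools are labelled, and all of them were used. No label says whether pools with the same number share a litter or a day, so the spread between pools may be partly technical.

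Endothelins are short peptides cut from longer precursors, first by furin-type proteases and then by endothelin-converting enzyme 1, the product of Ece1. EDNRA, a G protein-coupled receptor of neural crest cells and smooth muscle, prefers endothelin 1, while EDNRB binds endothelin 1 and endothelin 3 alike. In mice, the Edn1, Ece1 and Ednra axis is known for its role in the crest that builds the pharyngeal arches, the great arteries and the outflow septum, and the Edn3 and Ednrb axis for its role in the crest that gives enteric neurons and melanocytes. Ednrb is also a gene of endothelium.

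The coding bases of the mature peptides are shown because Edn1 and Edn3 are close paralogues, so that reads could in principle be divided between their rows. Both stretches lie in exon 2 of 5, on the plus strand of GRCm38, at chr13:42303649-42303711 for Edn1 and chr2:174761749-174761811 for Edn3. They were read 5′ to 3′ from the first listed GENCODE coding transcript of each gene, and capitals mark the bases at which the ligands differ.
Edn1: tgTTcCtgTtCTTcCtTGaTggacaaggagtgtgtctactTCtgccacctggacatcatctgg
Edn3: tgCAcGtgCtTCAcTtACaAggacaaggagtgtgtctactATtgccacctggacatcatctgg
Of the 63 bases, 50 were identical, and 15 of the 21 encoded residues were the same. The longest identical run was 21 bases, and no longer exact match was found anywhere between these transcripts of 2139 and 3117 bases. Between the transcripts of Ednra and Ednrb chosen in the same way the longest exact match was 15 bases. These stretches are shorter than an untrimmed read, so no such read can match both of these transcripts of a pair exactly. Other transcripts of these genes and the opposite strand were not compared.

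Values are CPM, read counts that the authors scaled to a common library size after adjusting it for composition. Every value was a whole multiple of 1 step, which gave the reads behind it. Depth on the listed genes was between 17783655 and 34467710 reads per pool. Fold changes are differences of group means of log2(CPM + 0.5), Gata6STOP/+ minus control, from a limma fit over all 14732 genes, with p-values adjusted by the Benjamini-Hochberg method over the same genes. In that fit 0 genes, or 0.0%, had an adjusted p under 0.05, and 1187 genes, or 8.06%, had an unadjusted p under 0.05 (edgeR's quasi-likelihood test on the recovered reads also called 0, with 1177 unadjusted). Gata6 itself was at 257 to 315 CPM in the control pools and 203 to 268 CPM in the Gata6STOP/+ pools, whose mean was 79.2% of the control mean.

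Of the members tested, 0 of 4 passed the threshold. Edn1, Ece1 and Ednra had intervals narrow enough to bound the difference, Edn3 had few reads, and Ednrb, whose contrast bore on the choice of members, is described without a test. The plot of CPM by pool shows all 35 values.

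**Figure D1:**
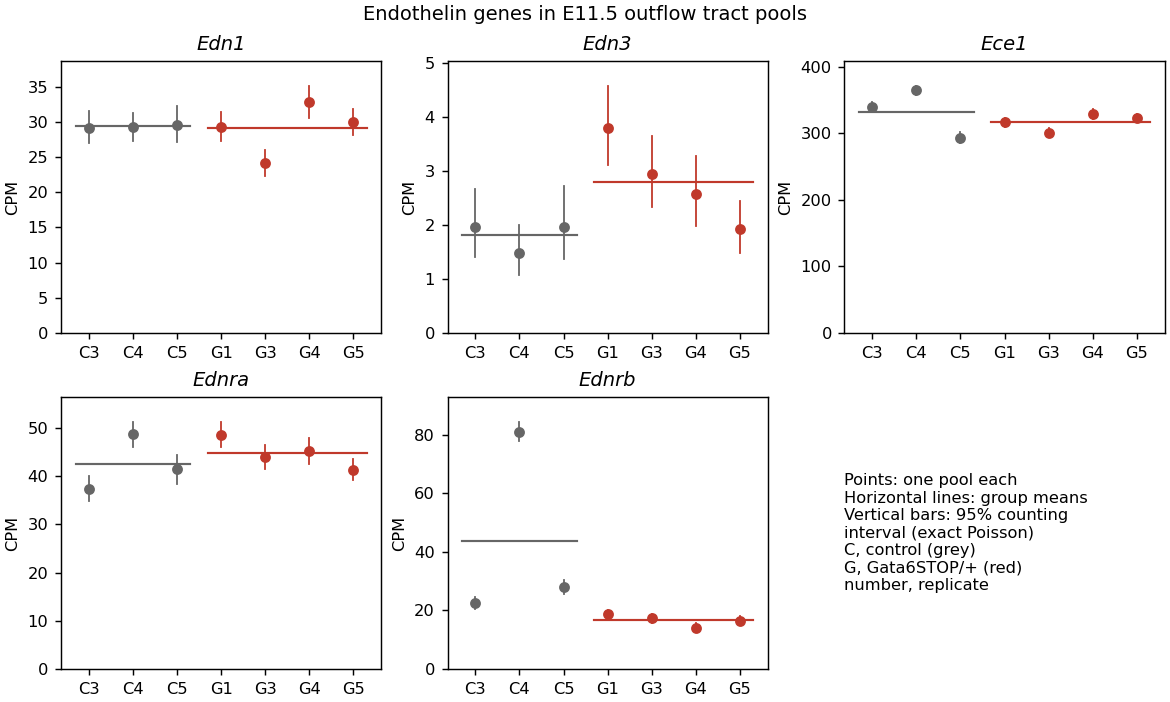
CPM (vertical axis, from 0) of the 5 endothelin genes in each of the 3 control pools (grey) and 4 Gata6STOP/+ pools (red), with group means as horizontal lines and exact Poisson 95% counting intervals as vertical bars. The groups overlap for Edn1, Edn3, Ece1 and Ednra, whereas the 4 Gata6STOP/+ pools lie below all control pools for Ednrb, where control replicate 4 reaches 81.0 CPM.

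Among the ligands, Edn1 (ENSMUSG00000021367, chr13:42301476-42307990, plus strand) had 29.2, 29.3 and 29.6 CPM in control replicates 3, 4 and 5. The values in Gata6STOP/+ replicates 1, 3, 4 and 5 were 29.3, 24.2, 32.8 and 30.0 CPM. The control pools were almost level, and the Gata6STOP/+ pools lay on both sides of them, replicate 3 below and replicates 4 and 5 above. The means were 29.4 ± 0.229 (SD, n = 3) and 29.1 ± 3.60 CPM (SD, n = 4), a log2 fold change of -0.02 (SE 0.096, limma adjusted p = 0.970). The 95% interval of the difference ran from 0.850-fold to 1.14-fold. Between 529 and 1032 reads stood behind each value, and in Gata6STOP/+ replicate 3 the counting interval, 22.4 to 26.1 CPM, did not reach the value of any control pool. Counting intervals here cover counting error only. Without that pool the log2 fold change was 0.06.

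Edn3 (ENSMUSG00000027524, chr2:174760619-174784042, plus strand) was the least abundant member. Control replicates 3, 4 and 5 had 1.97, 1.48 and 1.96 CPM, from 41, 43 and 35 reads. Gata6STOP/+ replicates 1, 3, 4 and 5 had 3.79, 2.93, 2.56 and 1.92 CPM, from 108, 81, 63 and 66 reads. Of the 4 Gata6STOP/+ pools, 3 lay above every control pool, and replicate 5 lay below control replicates 3 and 5, so the groups overlapped. The means were 1.80 ± 0.277 (SD, n = 3) and 2.80 ± 0.781 CPM (SD, n = 4), a log2 fold change of 0.50 (SE 0.208). The limma adjusted p was 0.581, with an interval of 1.03-fold to 1.94-fold before adjustment, so a difference was not established over all genes. The counting intervals of single pools were wide at this depth, such as 1.37 to 2.73 CPM in control replicate 5.

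Ece1, which encodes the enzyme that frees both peptides from their intermediates (ENSMUSG00000057530, chr4:137862237-137965229, plus strand), was the most abundant member. Its level was 340, 364 and 293 CPM in control replicates 3, 4 and 5. The Gata6STOP/+ pools (replicates 1, 3, 4 and 5) had 317, 301, 329 and 324 CPM, all within the range of the controls. The means were 332 ± 36.2 (SD, n = 3) and 318 ± 12.1 CPM (SD, n = 4), a log2 fold change of -0.06 (SE 0.077, limma adjusted p = 0.878). The interval was 0.853-fold to 1.08-fold, with at least 5236 reads behind each value. Without control replicate 4, the highest pool, the log2 fold change was 0.0089.

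The receptor gene Ednra (ENSMUSG00000031616, chr8:77663031-77724464, minus strand) had 37.4, 48.6 and 41.4 CPM in control replicates 3, 4 and 5. In Gata6STOP/+ replicates 1, 3, 4 and 5 the level was 48.6, 43.9, 45.2 and 41.3 CPM. All 4 Gata6STOP/+ values lay within the range of the controls. The means were 42.5 ± 5.73 (SD, n = 3) and 44.8 ± 3.03 CPM (SD, n = 4), a log2 fold change of 0.08 (SE 0.092, limma adjusted p = 0.860). The interval was 0.919-fold to 1.22-fold. Without control replicate 3, the lowest pool, the log2 fold change was -0.0054.

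Ednrb (ENSMUSG00000022122, chr14:103814625-103844402, minus strand), the receptor gene of the Edn3 axis, had 22.5, 81.0 and 27.8 CPM in control replicates 3, 4 and 5, from 469, 2348 and 497 reads. Gata6STOP/+ replicates 1, 3, 4 and 5 had 18.6, 17.2, 14.1 and 16.5 CPM, from 531, 476, 347 and 568 reads. Control replicate 4 stood apart, at 3.22 times the mean of the other control pools and 4.16 times the mean of the other 6 pools. Every Gata6STOP/+ pool lay below every control pool, a pattern shown by 8.47% of all genes in one direction or the other and by 1 of the 5 members. Because this contrast bore on the choice of members, nothing is read from that share.

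The means of Ednrb were 43.8 ± 32.4 (SD, n = 3) and 16.6 ± 1.89 CPM (SD, n = 4), so that the Gata6STOP/+ mean was 38.0% of the control mean and the log2 fold change -1.14 (SE 0.336). Leaving out control replicate 4 moved the control mean to 25.2 ± 3.78 CPM (SD, n = 2), the Gata6STOP/+ mean to 66.1% of it and the log2 fold change to -0.58 (SE 0.129). The gap between the groups was small either way, as the highest Gata6STOP/+ pool and the lowest control pool were 3.86 CPM apart, close to the SD of the remaining control pools. The 4 Gata6STOP/+ pools spread no more for Ednrb (SD of log2 values 0.164) than for Edn1 (0.182). Among the control pools the SD of Ednrb, 0.979, was the 63rd highest of 14732 genes, while that of Edn1, 0.011, was the 14619th. The Ednrb level in control replicate 4 bore on the choice of members, so the rank of Ednrb is no separate result.

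**Figure D2:**
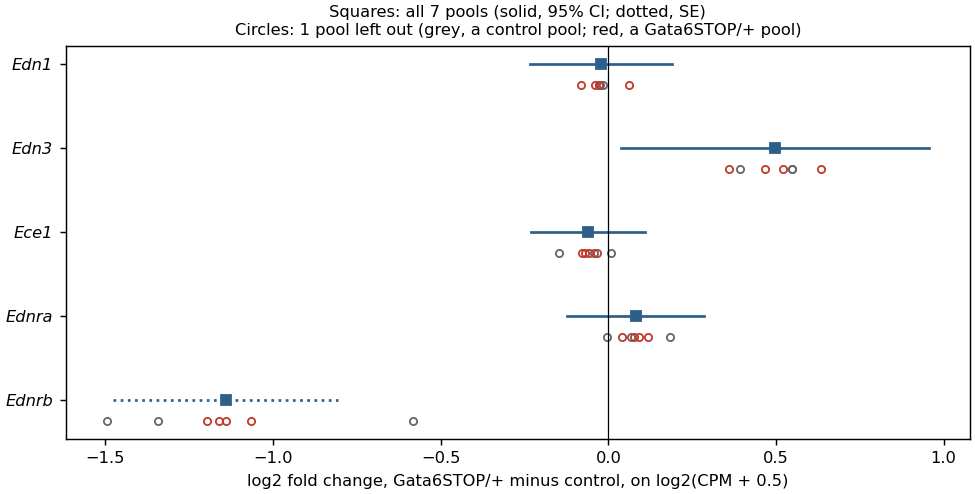
Log2 fold change (horizontal axis, Gata6STOP/+ minus control) of each endothelin gene over all 7 pools as squares, with the 95% interval for the 4 tested genes and the standard error for Ednrb, and with 1 pool left out at a time as circles. The values of Edn1, Ece1 and Ednra lie around 0, that of Edn3 at 0.50, and that of Ednrb moves from -1.14 to -0.58 without control replicate 4.

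Other genes in which control replicate 4 stood apart were looked up, and some are plotted beside Ednrb. Over the 11627 genes averaging 5 CPM or more, Ednrb ranked 12th by its excess in control replicate 4 over the other control pools (1.68 on the log2 scale). That rank repeats the level on which Ednrb was in part selected and is no separate result. The first 20 genes in that order, looked up after their values were seen, included Bmp10, a growth factor gene of trabecular myocardium (66.5 CPM against 6.14 and 11.3 CPM in the control replicates 3 and 5, with no more than 5.79 CPM in the Gata6STOP/+ pools), and Nppa, the atrial natriuretic peptide gene of chamber myocardium (174 CPM against 32.1 and 18.3 CPM, and at most 28.3 CPM). Others were Nppb, the gene of a further natriuretic peptide, Gja1, a gap junction gene, and the guidance gene Ntn1. Pseudogenes, predicted genes and Afp, a fetal liver and yolk sac gene, were also among the 20, and no theme was tested.

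The endothelial and endocardial marker list, all 10 of whose genes were measured, summed to 1205 CPM in control replicate 4, against 973 and 864 CPM in control replicates 3 and 5 and 950 to 1151 CPM in the Gata6STOP/+ pools. Control replicate 4 was the highest of the 7 pools for 5 of the 10 genes, against 11.9% of all genes, and the highest control pool for 9. Of the other 5, Tek, an angiopoietin receptor gene, was at 174 CPM there and at up to 201 CPM in the Gata6STOP/+ pools, and Nfatc1, a transcription factor gene of endocardium, was at 91.3 CPM there, below every Gata6STOP/+ pool (103 to 126 CPM) and below control replicate 3 (118 CPM). Npr3, an endocardial receptor gene that was also among the first 20 genes above, was at 100.1 CPM there and at 34.2 to 46.8 CPM in all other pools. Emcn, which encodes an endothelial sialomucin, was at 35.2 CPM there, whereas control replicates 3 and 5 had 12.4 and 18.3 CPM and the Gata6STOP/+ pools 11.4 to 15.4 CPM. Among the 9 cardiomyocyte markers, control replicate 4 was the highest of the 7 pools for 4, against the same 11.9% of all genes. They summed to 22911 CPM in control replicate 4, inside the range of the other pools (17321 to 24406 CPM), and the chamber gene Nppa was thus high there without a higher total of these markers. In RNA of whole tissue, more cells of a type and more RNA per cell cannot be told apart.

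The crest and glial markers that were measured were looked up in the same pools. Sox10, the transcription factor gene that defines migrating crest and glia, was at 2.66 CPM there, against 5.32 and 2.35 CPM in control replicates 3 and 5 and 2.49 to 2.89 CPM in the Gata6STOP/+ pools. Erbb3, a neuregulin receptor gene of crest and glia, was at 70.4 CPM there, below the 104 and 78.6 CPM of control replicates 3 and 5, with 58.0 to 70.5 CPM in the Gata6STOP/+ pools. The 5 measured genes of 9 crest and glial markers summed to 108 CPM in control replicate 4, within 108 to 147 CPM over the control pools, against 91.1 to 114 CPM over the Gata6STOP/+ pools. Control replicate 4 was the highest control pool for 0 of the 5. Foxd3, Fabp7 and S100b were not analysed here. Of 5 melanoblast markers 1 was measured, Pmel, at 0.280 to 1.59 CPM over all pools. Control replicate 4 also had the highest Xist level, 662 CPM, and the lowest level of the Y-linked gene Ddx3y, 12.3 CPM, of the 7 pools. The groups differed in these genes as well. Xist was at 362 to 662 CPM in the control pools and 1.30 to 539 CPM in the Gata6STOP/+ pools, whose mean was 43.8% of the control mean. Ddx3y was at 12.3 to 33.4 and 24.1 to 61.8 CPM, with a Gata6STOP/+ mean at 215% of the control mean. No fit included sex, so genotype and sex make-up are partly mixed in every comparison of the groups. Whether tissue or sex make-up has a part in the Ednrb level of control replicate 4 was not tested.

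The remaining marker lists describe the tissue of the pools. The 5 smooth muscle markers, led by Acta2, Tagln and Cnn1, summed to 2541 to 2996 CPM in the control pools and 2642 to 3490 CPM in the Gata6STOP/+ pools, and the 5 mesenchyme markers, led by Postn, Pdgfra and Sox9, to 1093 to 1458 and 811 to 1186 CPM. Cardiomyocyte markers, led by Myh7, Actc1 and Ttn, were abundant in all pools, as the label of heart tissue has it. Of 10 epithelial markers 3 were measured, the keratin genes Krt8, Krt18 and Krt19, at 111 to 181 and 127 to 179 CPM, and Epcam and Cdh1, which define epithelium, were not analysed here. Neuronal markers (8 of 10 measured) summed to 52.6 to 75.7 and 59.2 to 70.3 CPM, and macrophage markers (6 of 6) to 50.6 to 68.9 and 38.1 to 91.3 CPM. Erythroid markers (7 of 7) spanned 2287 to 5521 and 2664 to 6944 CPM. The part of these cells in the levels of the members was not tested.

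**Figure D3:**
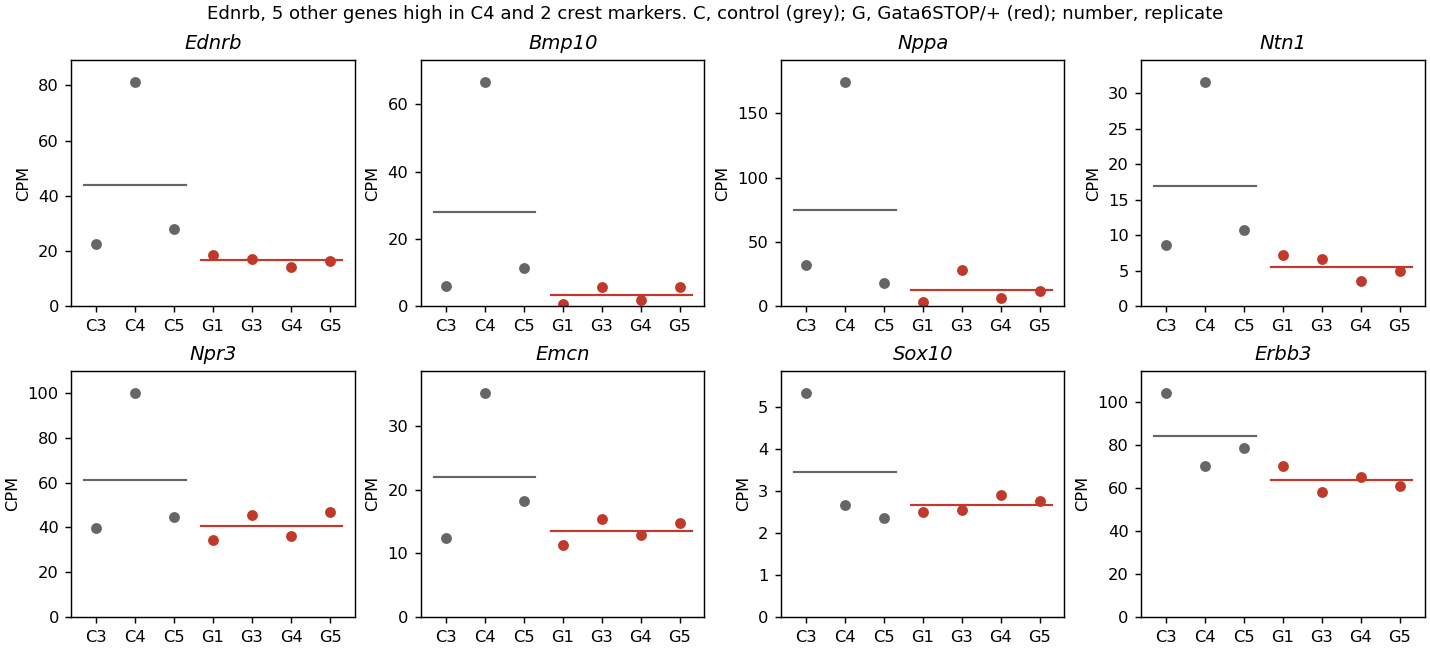
CPM (vertical axes, from 0) by pool of Ednrb, of Bmp10, Nppa, Ntn1, Npr3 and Emcn, and of the crest markers Sox10 and Erbb3, with group means as lines (grey, 3 control pools; red, 4 Gata6STOP/+ pools). Control replicate 4 is the highest pool in the first 6 panels, whereas Sox10, at 2.66 CPM, and Erbb3, at 70.4 CPM, are below control replicate 3 there.

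Levels of different genes were set side by side per kilobase of annotated exon. In the control pools the order was Ece1 (62.7 ± 6.82 CPM per kilobase, SD, n = 3), Edn1 (13.7 ± 0.107), Ednrb (10.3 ± 7.59), Ednra (7.75 ± 1.05) and Edn3 (0.438 ± 0.067). Ece1 was above 95.2% of genes on this scale and Edn3 above 6.42%. The ranges of Edn1, Ednrb and Ednra were not all separate, since Ednrb spanned 5.27 to 19.0 CPM per kilobase and so covered both neighbours. In the Gata6STOP/+ pools the order was Ece1 (59.9 ± 2.29, SD, n = 4), Edn1 (13.6 ± 1.68), Ednra (8.18 ± 0.553), Ednrb (3.90 ± 0.443) and Edn3 (0.681 ± 0.190), and no neighbours overlapped. With the length of the longest transcript in place of all exons, Ednra was at 11.7 and Ednrb at 10.7 CPM per kilobase in the control pools, which turns their order. On that length Edn1 (11.3 to 15.3 CPM per kilobase) and Ednra (11.4 to 13.4) overlapped in the Gata6STOP/+ pools.

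On the scale of CPM per kilobase of exon, Ednra was at 1.29, 0.468 and 1.16 times the level of Ednrb in control replicates 3, 4 and 5. In Gata6STOP/+ replicates 1, 3, 4 and 5 it was at 2.03, 1.98, 2.50 and 1.95 times that level. The balance of the receptor RNAs thus lay further towards Ednra in each Gata6STOP/+ pool than in any control pool, and this holds for any fixed pair of lengths. As Ednra differed little between the groups, the ratio repeats the Ednrb values and is no separate result. For the ligands, Edn1 was at 28.6, 37.9 and 29.1 times the level of Edn3 in the control pools and at 14.9, 15.8, 24.6 and 30.1 times that level in the Gata6STOP/+ pools, where replicate 5 lay among the controls.

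**Figure D4:**
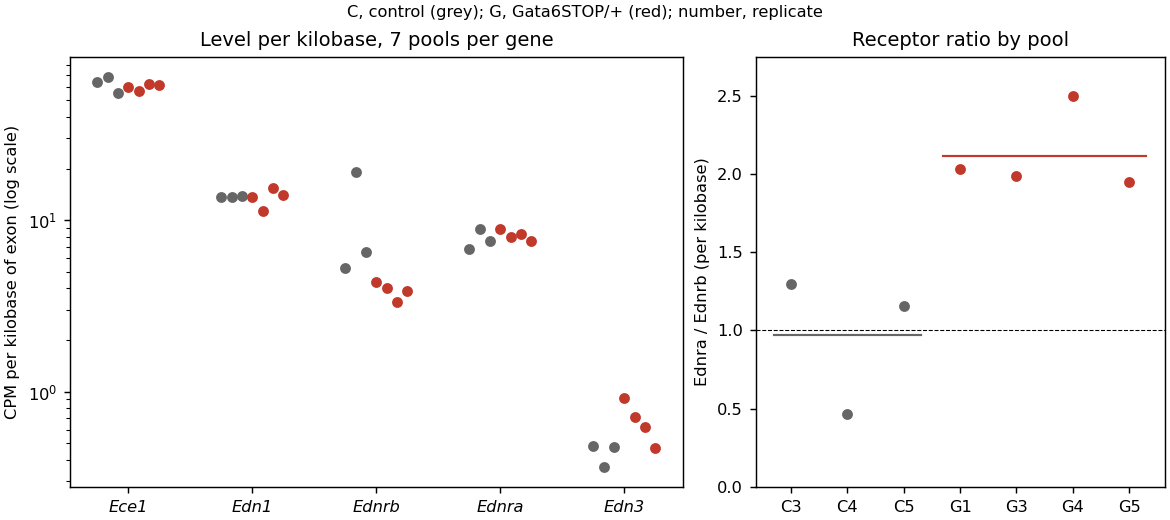
Left, CPM per kilobase of exon (log axis) of each endothelin gene in the 7 pools; right, the ratio of Ednra to Ednrb per kilobase in each pool, with group means as lines and equality dashed (grey, 3 control pools; red, 4 Gata6STOP/+ pools). Ece1 is the highest and Edn3 the lowest in every pool, and the receptor ratio is 1.95 to 2.50 in the Gata6STOP/+ pools and 0.468 to 1.29 in the controls.

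Of the lists around the members, the processing list holds the other precursor proteases and peptidases of the pathway, of which 7 of 10 were measured. By limma 0 rose and 0 fell at an adjusted p under 0.05, and 1 of the 7 had an unadjusted p under 0.05, against 8.06% of all genes. The median log2 fold change was 0.05, against -0.00073 over all genes. Pcsk6, a furin-family protease gene, was at 54.5 ± 2.54 CPM (SD, n = 3) in control and 46.3 ± 2.96 CPM (SD, n = 4) in Gata6STOP/+ pools (log2 fold change -0.24, SE 0.069, limma adjusted p = 0.393). Its relative Pcsk7 had a log2 fold change of -0.14 (limma adjusted p = 0.629), and both were lower in every Gata6STOP/+ pool than in every control pool. Of all genes, 8.47% had groups without overlap in either direction. Mme, the gene of the endothelin-degrading peptidase neprilysin, had a log2 fold change of 0.16 (limma adjusted p = 0.790). Edn2, Ecel1 and Mmel1 were not analysed here.

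All 20 genes of the transduction list, the G proteins, phospholipases, IP3 receptors, protein kinases C and arrestins that carry signals of both receptors, were measured. By limma 0 rose and 0 fell at an adjusted p under 0.05, and 3 had an unadjusted p under 0.05, against 8.06% of all genes. The median log2 fold change was -0.0054, with 10 genes above and 10 below 0. The smallest unadjusted p-values belonged to the IP3 receptor gene Itpr1 (log2 fold change 0.23, SE 0.080, limma adjusted p = 0.499), the phospholipase gene Plcb1 (0.30, SE 0.109, limma adjusted p = 0.517) and the G protein gene Gnai2 (-0.16, SE 0.062, limma adjusted p = 0.534). Every Gata6STOP/+ pool lay above every control pool for Plcb1 and below for Gnai2, and 8.47% of all genes had such groups without overlap.

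The list of arch crest genes that act downstream of EDNRA, or are linked to it, held 6 measured genes of 8. By limma 0 rose and 0 fell at an adjusted p under 0.05. An unadjusted p under 0.05 was found for 3 of the 6, each with the higher mean in Gata6STOP/+ pools, against 8.06% of all genes. The median log2 fold change was 0.25, with 5 genes above 0 and 1 below. Dlx3 and Dlx6 were not analysed here. The list was written with earlier results known, and Hand1 is a gene that the study itself picked from these pools, so its direction is not independent evidence.

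Barx1, a homeobox gene of arch mesenchyme, had 4.70, 3.04 and 4.09 CPM in control replicates 3, 4 and 5. The Gata6STOP/+ pools (replicates 1, 3, 4 and 5) had 7.40, 10.1, 9.36 and 8.40 CPM, and every Gata6STOP/+ pool was above every control pool. The log2 fold change was 1.08 (SE 0.158, limma adjusted p = 0.097). No gene of the table had a lower adjusted p in this fit, though Barx1 was not alone at that value. The call depended on the test, since the adjusted p was 1.2e-05 by edgeR's likelihood ratio test and 0.171 by its quasi-likelihood test. For Hand1, a basic helix-loop-helix factor gene, the log2 fold change was 0.41 (SE 0.096, limma adjusted p = 0.246), also without overlap. The adjusted p of Hand1 was 0.024 by edgeR's likelihood ratio test and 0.271 by edgeR's quasi-likelihood test. Groups without overlap in either direction were seen for 8.47% of all genes. Gsc, the goosecoid homeobox gene, rested on 8 to 64 reads per pool, with 0.665 ± 0.245 CPM (SD, n = 3) in control and 1.70 ± 0.624 CPM (SD, n = 4) in Gata6STOP/+ pools (log2 fold change 0.88, SE 0.283, limma adjusted p = 0.435). Its groups overlapped, because Gata6STOP/+ replicate 3, at 0.797 CPM, was below control replicate 4, at 0.828 CPM.

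Other genes of this list lay close together in the groups. In RNA of whole tissue, the cells behind the levels of the listed genes cannot be told. Hand2, the paralogue of Hand1, was at 247 ± 23.2 CPM (SD, n = 3) and 253 ± 13.7 CPM (SD, n = 4), a log2 fold change of 0.04 (limma adjusted p = 0.927). Mef2c, a gene of a MADS-box factor, had a log2 fold change of 0.09 (limma adjusted p = 0.809) and Dlx5, a distal-less homeobox gene, one of -0.04 (limma adjusted p = 0.985). The values of Barx1, Hand1 and Gsc were thus higher on average in the Gata6STOP/+ pools. Between the same groups, the means of Edn1, Ece1 and Ednra each differed by less than the larger group SD.

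**Figure D5:**
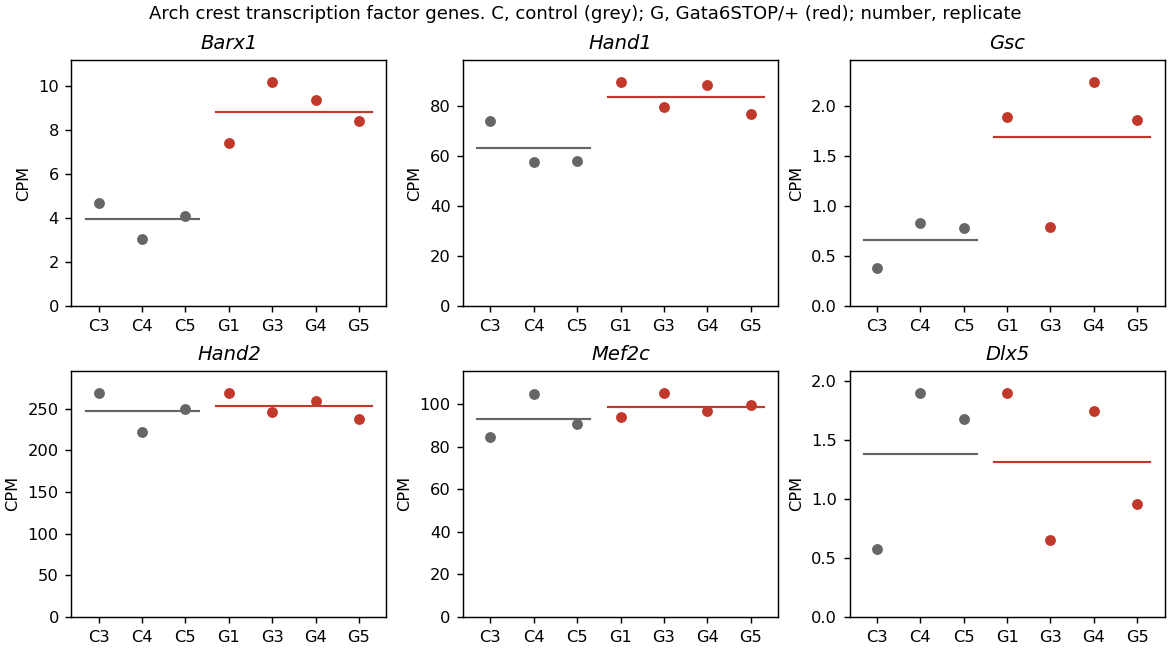
CPM (vertical axes, from 0) by pool of the 6 measured transcription factor genes of the arch crest list, with group means as lines (grey, 3 control pools; red, 4 Gata6STOP/+ pools). Barx1 and Hand1 are higher in all 4 Gata6STOP/+ pools than in any control pool, whereas the groups overlap for Gsc, Hand2, Mef2c and Dlx5.

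The list of genes that work with EDNRB in enteric and pigment crest held 9 measured genes of 11. By limma 0 rose and 0 fell at an adjusted p under 0.05, and 1 had an unadjusted p under 0.05, against 8.06% of all genes. The median log2 fold change was 0.07, with 5 genes above 0. L1cam, a neural cell adhesion gene, had 43.1, 21.6 and 24.4 CPM in control replicates 3, 4 and 5 and, in the Gata6STOP/+ pools, 19.2, 16.7, 20.5 and 17.4 CPM (log2 fold change -0.61, SE 0.192, limma adjusted p = 0.428). Its groups did not overlap, as for 8.47% of all genes. Here the high pool was control replicate 3, the same pool in which Sox10 and Erbb3 were highest. Kitl, the gene of the KIT ligand, had a log2 fold change of 0.15 (limma adjusted p = 0.699), and Kit one of -0.14 (limma adjusted p = 0.791). Gdnf and Pax3 were not analysed here.

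Likeness to each member was measured as Pearson's r of log2(CPM + 0.5) over the 7 pools, among 11616 candidate genes averaging 5 CPM or more. These values describe 7 points that share library and depth, and high values arise among so many candidates. The 5 genes most like Ednrb were Ntn1 (r = 0.980), Trp53i11, Reep5, Man2b2 and Dll1 (r = 0.970). Without control replicate 4, r was 0.952 for Ntn1 and 0.772 to 0.905 for the other 4, and 0 of these genes were still among the 5 most alike. The Ednrb level of that pool bore on the choice of members, so this likeness is no separate result. Among those most like Edn1 were Ctsf (r = 0.968), Pigx, Adipor2 and Elk1 (r = 0.936), and these 4, like Edn1, had their lowest value in Gata6STOP/+ replicate 3. Closest to Edn3 were Rilpl2 (r = 0.967), Tm2d1, Zranb1, Fubp3 and Wwc1 (r = 0.933). Among those closest to Ece1 were Pex19 (r = 0.972), Pomgnt2, Cep152 and Slc45a4 (r = 0.962), and closest to Ednra were Cblb (r = 0.986), Zfp597, Fndc3c1, Ttll4 and Gm44250 (r = 0.949).

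GATA factors bind short motifs, so the promoters of the members were searched for AGATAA and TGATAA, and for the same letters with G as the last base, on both strands. The RefSeq windows of GRCm38.p6 run from 250 bases before to 50 bases after an annotated start, and all 5 members matched, Ece1 with 4 windows. A match was present in 1 of the 8 windows, that of Edn1, against 29.8% of 32851 windows of all genes. It began 9 bases into the transcript, on the minus strand, and is shown with its surroundings at chr13:42301472-42301501, written along the plus strand with the match in capitals.
Edn1: tagagccgggtcTTATCTctggctgcacgt
The windows of Edn3, Ece1, Ednra and Ednrb did not hold these letters. A match of letters is a description of the sequence and shows no binding.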

How the data were processed

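RNA of E11.5 OFT pools (3 control, 4 Gata6STOP/+) was made into strand-specific libraries. The authors trimmed reads with Cutadapt, counted reads per Ensembl gene of GRCm38 with RSEM, and required 1 CPM or more in 3 samples, a filter that all 14732 rows met. The deposited CPM values refer to TMM-scaled library sizes (edgeR). Reads were recovered by dividing each deposited CPM value by the worth of 1 read, which gave whole numbers (within 0.01 reads) for 100% of values in every pool.

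Genes were tested with limma 3.58.1 (lmFit, eBayes with trend, two-sided, R 4.3.3) on log2(CPM + 0.5), which understates changes of low genes. Alternatives were pseudocounts 0.1 and 2, genes averaging 5 CPM or more, no filter (the same fit), median-of-ratios scaling, a replicate block, edgeR 4.0.16 and DESeq2 1.42.0 on recovered reads, and leaving out each pool. Fits were tested on simulated data. Members, gene lists (4 pathway, 10 marker) and tests were chosen with earlier results of these data known. Named genes were the members, the 3 of lowest p in each pathway list, the 5 most alike each member, high markers and Gata6; the other arch crest genes, Npr3, Emcn, Tek, Nfatc1, Xist, Ddx3y, the markers Erbb3 and Sox10 and the genes high in control replicate 4 were chosen after their values were seen. Lengths and positions came from GENCODE M21. Some genes that this rule names are not reported here.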

Additional observations from a re-analysis of the deposited data

How the results depend on the processing

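Edn1, Edn3, Ece1 and Ednra stayed at an adjusted p over 0.05 in every fit run. With 1 pool left out, the log2 fold change ranged from -0.083 to 0.061 for Edn1, 0.36 to 0.64 for Edn3, -0.15 to 0.0089 for Ece1, -0.0054 to 0.18 for Ednra and -1.50 to -0.58 for Ednrb. The sign turned for Edn1 without Gata6STOP/+ replicate 3 (0.061), for Ece1 without control replicate 4 (0.0089) and for Ednra without control replicate 3 (-0.0054). Edn3 had no value with a mean of at least 5 CPM. Under the other alternatives Ednrb lay between -1.41 and -1.08. Over all genes the count past an adjusted p of 0.05 was 1 with a pseudocount of 0.1, 105 by edgeR's likelihood ratio test and 88 by DESeq2, and 0 to 13 with 1 pool left out (13 without control replicate 4, 2 and 1 without Gata6STOP/+ replicates 3 and 1). The arch crest list had 2 genes past it by the likelihood ratio test and by DESeq2, Barx1 and Hand1 in both. With the replicate number as a block, to which Gata6STOP/+ replicate 1 adds nothing because no control pool has its number, limma called 14 genes, of which 1, Barx1, is in that list, and edgeR's likelihood ratio test 118, of which 2, Barx1 and Gsc, are in it. Deviations of same-numbered pools from their group means correlated at -0.046, -0.27 and -0.017 (replicates 3, 4 and 5) and were thus not over 0.1 for any pair; the numbers were not treated as pairs, and whether they mark a shared litter or day is not given. The other pathway lists had 0 genes past the threshold in every fit. Of the 5 genes most alike each member, 0 to 2 remained without control replicate 4 and 0 to 1 by Spearman's rank correlation. Depth limits what can be said of genes with few reads, such as Edn3 (35 to 108 reads per pool) and Gsc (8 to 64).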
